A study of Mus musculus with 35 samples.

Results

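The *Zscan4* cluster encodes zinc finger and SCAN domain proteins that mark the 2-cell mouse embryo, and the genes followed here were *Zscan4c*, *Zscan4d*, *Zscan4f*, *Tcstv1*, *Tcstv3* and *Zfp352*, chosen by gene symbol. Of these 6 symbols, 4 were found among the 26127 genes of the expression table, namely the 3 *Zscan4* genes and *Zfp352*, whereas *Tcstv1* and *Tcstv3* were not analysed here. The table held 6 genes whose symbol starts with *Zscan4*, and *Zscan4b*, *Zscan4e* and the pseudogene *Zscan4-ps2* are given beside the members. Because the copies resemble each other, the *Zscan4c*, *Zscan4d* and *Zscan4f* values were also added up.

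The data were total RNA-seq libraries of mouse embryonic stem cells (ESCs), depleted of ribosomal RNA, from a time course after deletion of *Dnmt1*, the methyltransferase that copies DNA methylation onto newly made strands. There were 17 wild-type (WT) and 17 *Dnmt1* KO libraries over 8 time points (days 0, 1, 3, 6, 9, 11, 17 and 25), with 2 libraries per genotype and day and 3 at day 1, and 1 library of *Dicer* KO ESCs. The study's methods describe the cells as *Dnmt1* loxP/loxP ESCs of strain C57BL/6, whereas the labels name E14 as the strain background. Tamoxifen (4OHT) switched on the Cre recombinase that removes *Dnmt1*, the *Dicer* KO line was made from the same ESCs by CRISPR/Cas9, and the cells grew in serum with LIF, with or without a layer of feeder cells. The labels do not say whether the WT cells received tamoxifen. The series text calls the libraries of a group biological replicates, but nothing says whether they came from separate cultures, so the p-values measure the spread between these libraries.

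*Zscan4* genes are transcribed in a burst when the mouse embryonic genome is activated at the 2-cell stage, and then fall silent. In ESC cultures only a small and changing fraction of cells expresses them at any moment, together with other 2-cell genes such as *Tcstv1*, *Tcstv3* and *Zfp352*, which encodes a zinc finger protein. The state is known to be promoted by the factors Dux, Dppa2 and Dppa4, and to be restrained by chromatin assembly factors and repressive chromatin complexes. In bulk RNA, more expressing cells and more RNA per expressing cell cannot be told apart.

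In the build of the expression table (NCBIM37), *Zscan4c* (ENSMUSG00000054272) lies on chr7:11591071-11595896 on the plus strand. *Zscan4d* (ENSMUSG00000090714) lies on chr7:11746992-11751497 on the minus strand. *Zscan4f* (ENSMUSG00000070828) lies on chr7:11983264-11988090 on the plus strand. *Zfp352* (ENSMUSG00000070902) stands apart from the cluster, on chr4:89885511-89892393 on the plus strand. Values cover the annotated exons of each gene, which span 2301 bases for *Zscan4c*, 1992 for *Zscan4d*, 2430 for *Zscan4f* and 2327 for *Zfp352*.

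The promoters of the 4 members are shown because *Dnmt1* acts on CpG dinucleotides, which are in capitals, and because the 3 *Zscan4* genes moved together below. Each run holds 250 bases before and 50 after the transcription start, 5′ to 3′, from RefSeq on build GRCm38.p6. That build differs from the build of the table, and no coordinate was converted. The positions are chr7:11005495-11005794 (plus strand) for *Zscan4c*, chr7:11166099-11166398 (minus strand) for *Zscan4d*, chr7:11397665-11397964 (plus strand) for *Zscan4f* and chr4:90218570-90218869 (plus strand) for *Zfp352*.
Zscan4c: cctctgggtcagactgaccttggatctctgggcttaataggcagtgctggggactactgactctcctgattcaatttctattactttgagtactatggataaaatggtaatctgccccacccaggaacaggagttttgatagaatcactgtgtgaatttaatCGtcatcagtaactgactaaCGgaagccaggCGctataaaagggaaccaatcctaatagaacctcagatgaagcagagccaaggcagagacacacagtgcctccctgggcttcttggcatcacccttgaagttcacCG
Zscan4d: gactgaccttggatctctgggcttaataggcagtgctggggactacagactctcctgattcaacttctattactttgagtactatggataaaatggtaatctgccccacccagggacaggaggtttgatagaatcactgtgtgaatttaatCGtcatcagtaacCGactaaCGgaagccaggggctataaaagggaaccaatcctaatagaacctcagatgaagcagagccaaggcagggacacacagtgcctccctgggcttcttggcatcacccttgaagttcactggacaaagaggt
Zscan4f: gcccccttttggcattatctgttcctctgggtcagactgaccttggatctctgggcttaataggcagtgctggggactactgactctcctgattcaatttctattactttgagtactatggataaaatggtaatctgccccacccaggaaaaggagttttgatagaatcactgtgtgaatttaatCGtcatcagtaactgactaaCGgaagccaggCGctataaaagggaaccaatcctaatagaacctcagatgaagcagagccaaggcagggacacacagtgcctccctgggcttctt
Zfp352: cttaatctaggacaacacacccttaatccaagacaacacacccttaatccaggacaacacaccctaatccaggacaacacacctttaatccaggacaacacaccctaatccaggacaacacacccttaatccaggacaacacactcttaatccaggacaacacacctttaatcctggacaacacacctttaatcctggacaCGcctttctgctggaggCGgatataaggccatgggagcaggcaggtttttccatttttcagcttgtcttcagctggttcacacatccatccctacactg

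These promoters held few CpGs. The *Zscan4c* promoter had 4 CpGs, those of *Zscan4d* and *Zscan4f* 3 each and that of *Zfp352* 2, against a median of 7 over 32851 RefSeq mouse promoters of the same length. Such low numbers were common, since 31.4% of all promoters had 3 or fewer and 38.0% had 4 or fewer. Over the bases aligned without a gap, the *Zscan4c* and *Zscan4f* promoters were 99.3% identical, *Zscan4c* and *Zscan4d* 97.2%, and *Zscan4d* and *Zscan4f* 97.4%. *Zfp352* shared 68.0 to 70.1% of 248 to 259 bases aligned without a gap with the promoters of *Zscan4c*, *Zscan4d* and *Zscan4f*. No unrelated promoters were aligned for comparison, so how far this exceeds unrelated sequence is not known. The letters TATAAA, searched on both strands, occurred once in each *Zscan4* promoter, not in that of *Zfp352*, and in 13.6% of all promoters. The *Zfp352* promoter instead held 9 copies of GACAACACAC, the word of 10 letters found most often in it and chosen after the sequence was seen, which 0.0517% of all promoters contained on either strand. These matches are descriptions of the letters and not binding sites.

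The exons of the *Zscan4* genes are close copies too, which bears on how reads could be assigned. Of the 1935 windows of 100 bases within exons of *Zscan4f*, 1812 (93.6%) occurred a second time in the genome, leaving 123 that were found once. The share was 70.4% for *Zscan4c* (1341 of 1905 windows) and lowest for *Zscan4d*, at 27.5% (440 of 1599). The repeated windows of these genes all lay on chromosome 7. Reads with a low mapping quality were discarded by the authors, so how the cluster's reads were divided between its copies is uncertain, and the sum is less affected by that division than the single genes. Discarded reads are missing from the sum as well, so the sum can understate the RNA of the cluster. How many were discarded is not known. *Zfp352* had 0.658% of repeated windows (14 of 2129).

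*Dnmt1* itself was checked first. Its level ranged from 14.1 to 34.8 RPKM (reads per kilobase of exon and per mega-read of the library) in the 15 WT libraries other than day 6. In the 13 KO libraries from day 1 on without day 6 it was 2.58 to 8.13 RPKM. At day 6 the order was the opposite: the libraries labelled WT held 3.22 and 3.40 RPKM, and those labelled KO 20.2 and 20.4 RPKM (log2 difference 2.58, limma adjusted p = 5.11e-06). The day 6 libraries therefore went against their labels. They were kept under these labels, and no direction of the KO effect was taken from them. At day 0, WT and KO held 18.3 to 18.7 RPKM.

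The libraries also fell into 2 sets by the share of reads within exons. It was 20.7 to 22.4% for 20 libraries, those of days 0, 3, 6 and 9 and the first pairs of day 1 by replicate number. In the 15 libraries of days 11, 17 and 25, the third pair of day 1 and the *Dicer* KO it was 44.7 to 49.9%. WT and KO of the same day and replicate number always belonged to the same set. Levels of days 0 to 9 and of days 11 to 25 are therefore given on a second scale too, on which every library was brought to the mean share in exons of 32.4%. Library depth was 24.3 to 72.1 mega-reads, of which 5.20 to 18.0 mega-reads lay in exons.

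**Figure D1:**
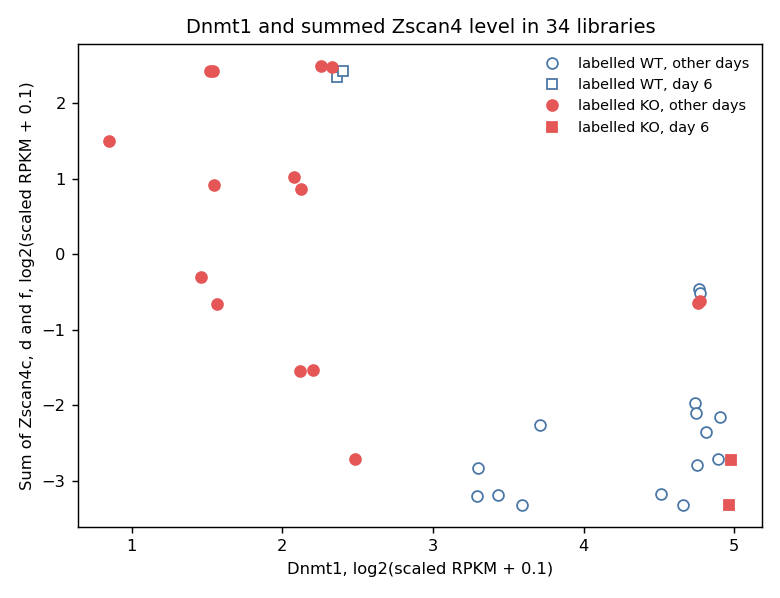
Level of *Dnmt1* (x axis) against the summed level of *Zscan4c*, *Zscan4d* and *Zscan4f* (y axis), both as log2 of RPKM at an equal share of reads in exons plus 0.1, in the 34 WT and *Dnmt1* KO libraries; each point is 1 library, coloured by genotype label, with squares for day 6. The 4 squares lie among the libraries of the opposite label, those labelled WT at low *Dnmt1* (3.22 and 3.40 RPKM as deposited) and those labelled KO at high *Dnmt1*.

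At days 0 and 1 the *Zscan4* genes were low and no difference between WT and KO passed the test. The sum of the 3 *Zscan4* genes was 0.421 and 0.404 RPKM in WT and 0.374 and 0.372 RPKM in KO at day 0. At day 1 it was 0.104, 0.0301 and 0.161 RPKM in WT and 0.163, 0.165 and 0.0784 RPKM in KO, below every day 0 library. The KO libraries lay just below WT at day 0, an order shown by 13.7% of the 21683 genes with a value above 0 in at least 2 libraries, and the groups overlapped at day 1. None of the 3 genes passed the test at either day (limma adjusted p = 1 for each), nor did more than 0.00861% of the 11615 genes tested in any direction. Of these 6 limma tests, 1 had an unadjusted p below 0.05, that of *Zscan4c* at day 1, and limma voom called none of them higher. Per unit of depth, KO held 0.907 times the WT reads of the sum at day 0 (exact 95% counting interval 0.656 to 1.26) and 1.42 times at day 1 (0.821 to 2.48). These intervals cover counting error only.

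From day 3 on the *Zscan4* genes were higher in *Dnmt1* KO ESCs at every day except the day 6 libraries as labelled. *Zscan4c* measured 0.0181 and 0.0235 RPKM in WT and 0.363 and 0.384 RPKM in KO at day 3. *Zscan4d* measured 0.0209 and 0.0544 RPKM in WT and 0.447 and 0.504 RPKM in KO. *Zscan4f* measured 0.0257 and 0.0111 RPKM in WT and 0.333 and 0.413 RPKM in KO. In all 3 genes both KO libraries stood above both WT libraries, an order that 29.6% of the 21683 genes with a value above 0 in at least 2 libraries showed at this day. Each of them rose by the test, with log2 differences on the log2(RPKM + 0.1) scale of 1.97 for *Zscan4c* (SE 0.262, limma adjusted p = 1.49e-04), 2.07 for *Zscan4d* (adjusted p = 9.85e-05) and 2.00 for *Zscan4f* (adjusted p = 9.85e-05). Over all genes tested, 0.603% were called higher in KO at day 3. In reads per depth, which carries no pseudocount, the sum was 16.2-fold higher in KO (95% counting interval 9.41 to 30.4).

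At day 9 the 2 genotypes stood further apart. *Zscan4c* measured 0.00615 and 0.0179 RPKM in WT against 1.02 and 1.22 RPKM in KO. *Zscan4d* measured 0.0355 and 0 RPKM in WT against 1.69 and 1.45 RPKM in KO, and *Zscan4f* 0.0407 and 0.0169 RPKM against 0.993 and 1.02 RPKM. The groups did not overlap in any of the 3, as for the 32.6% of these 21683 genes whose KO libraries lay entirely above WT. The log2 differences were 3.44 (limma adjusted p = 9.91e-09), 3.84 (2.74e-09) and 3.11 (2.62e-08) in that order, where 2.46% of all genes tested were called higher. The KO sum was 51.6-fold higher in reads per depth (31.1 to 92.8), at 3.70 ± 0.0041 RPKM (SD, n = 2).

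The WT background stayed near 0 from then on, and the KO level was less even at day 11. *Zscan4c* was listed at 0 in both WT libraries at day 11 and measured 1.13 and 0.617 RPKM in KO. *Zscan4d* measured 0 and 0.0261 RPKM in WT and 1.76 and 0.994 RPKM in KO, and *Zscan4f* 0.0127 and 0.0321 RPKM against 1.23 and 0.896 RPKM. KO replicate 1 was the higher of the pair for all 3 genes, and both KO libraries stood above both WT libraries, as in 28.3% of the 21683 genes. The KO pair of day 11 also differed over all genes, with a chi-square of read counts of 40.9 per degree of freedom. That was the largest of any replicate pair outside day 1. *Dnmt1* stood at 2.58 RPKM in KO replicate 1 and 3.97 RPKM in KO replicate 2. All 3 genes rose by 3.23 to 3.67 on the log2 scale (limma adjusted p from 1.93e-09 to 1.10e-08), against 4.37% of all genes called higher.

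In RPKM as deposited, the levels were highest at day 17. *Zscan4c* measured 0.0147 and 0 RPKM in WT and 2.11 and 1.95 RPKM in KO. *Zscan4d* was at 0 in both WT libraries and at 3.23 and 3.55 RPKM in KO. *Zscan4f* was at 0 in both WT libraries and at 2.69 and 2.5 RPKM in KO. *Zscan4d* thus had the highest RPKM of the cluster, but also its smallest share of repeated windows. How far read assignment shaped this order was not tested. Only 1 read fell on the 3 genes in the 2 WT libraries together, against 1090 in the 2 KO libraries. KO libraries lay entirely above WT for 35.5% of the 21683 genes at this day. The log2 differences were 4.31 for *Zscan4c* (limma adjusted p = 6.00e-11), 5.12 for *Zscan4d* (4.61e-12) and 4.75 for *Zscan4f* (7.81e-12), where 9.13% of all genes tested were called higher. Against a floor of 3 reads over the group, *Zscan4d* was at least 134-fold and *Zscan4f* at least 125-fold higher in KO, and *Zscan4c* 277-fold higher with a wide interval (49.4 to 10990).

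At day 25 the genes were still higher in KO but at lower levels. *Zscan4c* was at 0 in both WT libraries and at 0.190 and 0.184 RPKM in KO. *Zscan4d* was at 0 in both WT libraries and at 0.523 and 0.688 RPKM in KO, and *Zscan4f* measured 0 and 0.0152 RPKM in WT and 0.111 and 0.215 RPKM in KO. The groups did not overlap, as in 36% of the 21683 genes. The log2 differences were 1.52 (limma adjusted p = 2.20e-04), 2.81 (1.05e-07) and 1.26 (9.73e-04) in that order, and the median of all genes tested stood at 0.13 and 9.6% of them were called higher. The KO level of the sum at day 25, 0.955 ± 0.187 RPKM (SD, n = 2), compared with 8.01 ± 0.0161 RPKM at day 17.

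**Figure D2:**
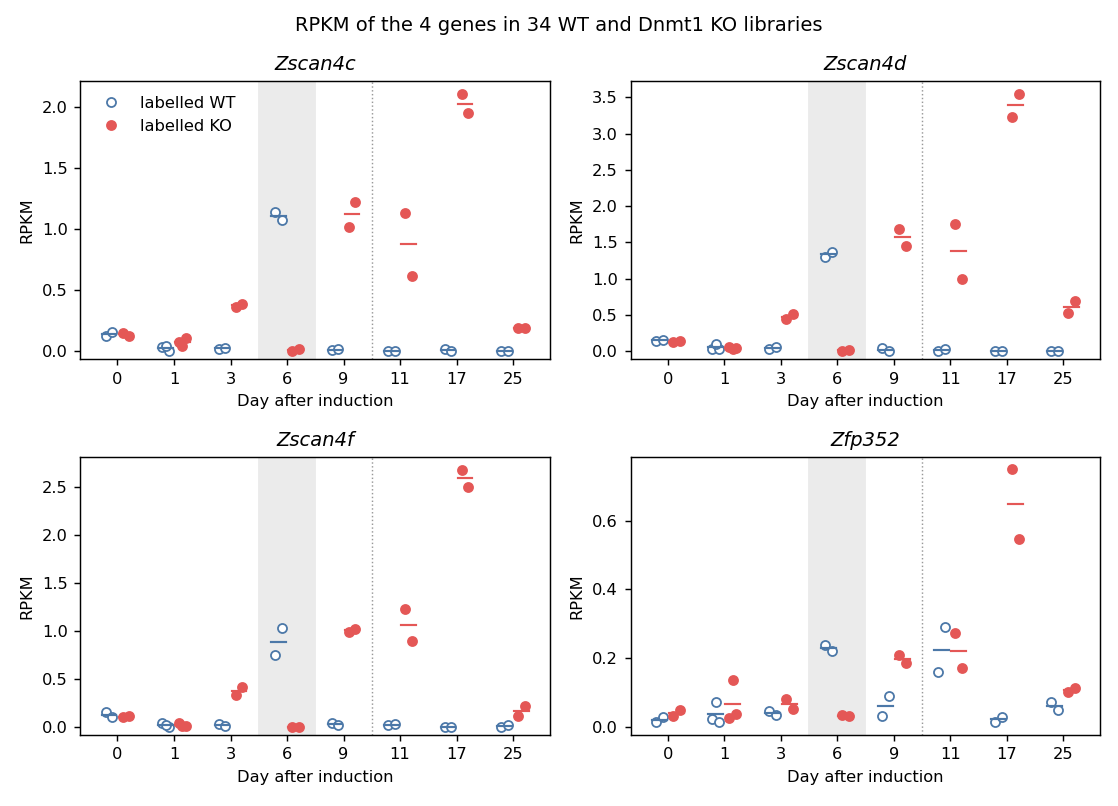
RPKM of the 4 members (1 panel each) by day in WT and *Dnmt1* KO libraries; each point is 1 library, short bars mark the group means, the shaded band is day 6 and the dotted line marks where the share of reads in exons changes. The *Zscan4* panels rise in KO from day 3, peak at day 17 with up to 3.55 RPKM for *Zscan4d*, and are low again at day 25, while *Zfp352* never exceeds 0.750 RPKM.

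The 4 libraries of day 6 showed the reverse order in each *Zscan4* gene. *Zscan4c* measured 1.14 and 1.07 RPKM in the libraries labelled WT and 0 and 0.0155 RPKM in those labelled KO. *Zscan4d* measured 1.3 and 1.37 RPKM against 0 and 0.0180 RPKM, and *Zscan4f* 0.750 and 1.03 RPKM against 0 in both. The groups did not overlap, as in the 34.6% of the 21683 genes whose libraries labelled KO lay entirely below. The log2 differences as labelled were -3.49, -3.73 and -3.29 (limma adjusted p from 6.12e-09 to 1.10e-08), where 2.16% of all genes tested were called lower. The libraries labelled WT, low in *Dnmt1*, had a *Zscan4* sum of 3.33 ± 0.197 RPKM (SD, n = 2), between those of the KO libraries at day 3 (1.22 ± 0.111 RPKM) and day 9. The libraries labelled KO had 0 and 0.0335 RPKM. The calls of the other days held without the 4 libraries of day 6.

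*Zfp352* was much scarcer and missed the filter used for the other members, more than 1 RPKM in at least 2 libraries. That filter was passed by *Zscan4c* and *Zscan4d* through 7 libraries each and by *Zscan4f* through 5, all of them libraries in which the genes were high, so that a gene kept by it was bound to differ between libraries. *Zfp352* was therefore taken from a fit over the 21683 genes with a value above 0 in at least 2 libraries. At day 17 it measured 0.0145 and 0.0288 RPKM in WT and 0.750 and 0.548 RPKM in KO, with no overlap. Its log2 difference of 2.61 (SE 0.266) passed the test at a limma adjusted p of 3.84e-07, where 10.5% of the genes in this fit were called higher, and reads per depth gave 29.9-fold (9.94 to 148).

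At day 9 *Zfp352* measured 0.0304 and 0.0884 RPKM in WT and 0.209 and 0.185 RPKM in KO. Both KO libraries were above WT, but the log2 difference of 0.92 missed the threshold (limma adjusted p = 0.0673, range over its alternatives 0.00266 to 0.555), whereas reads per depth gave 4.38-fold (2.13 to 9.91). At day 11 the groups overlapped, with 0.159 and 0.290 RPKM in WT and 0.273 and 0.170 RPKM in KO. These were the highest WT values of *Zfp352* outside day 6, and at this day its WT level was close to that of KO, whereas the *Zscan4* genes held at most 0.0321 RPKM in WT. At day 25 it measured 0.0715 and 0.0475 RPKM in WT and 0.101 and 0.112 RPKM in KO, a log2 difference of 0.38 that was not called (adjusted p = 0.378).

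At days 0, 1 and 3 the *Zfp352* differences were 0.21 to 0.25 (limma adjusted p = 1 for each). In the day 6 libraries *Zfp352* again went with the *Zscan4* genes, at 0.237 and 0.221 RPKM in those labelled WT and 0.0339 and 0.0307 RPKM in those labelled KO. Its difference of -1.31 passed the test (limma adjusted p = 0.00639) and was lost when WT replicate 1 or either KO library of that day was left out (0.0596 to 0.0747). So in the fits described above *Zfp352* was called higher in KO at day 17 alone, while the 3 *Zscan4* members were called at 5 days. At day 9 *Zfp352* was called without the third pair of day 1 (limma adjusted p = 0.00271), at an equal exon share (0.00266) or with limma voom (0.0182). Of its 43 alternatives at day 9, 7 called it and 36 did not.

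The other *Zscan4* copies had the same order at the same days. *Zscan4b* reached 0.778 RPKM, *Zscan4e* 0.815 RPKM and *Zscan4-ps2* 0.991 RPKM, each in a KO library of day 17, and WT libraries from day 9 on held at most 0.0194 RPKM of any of them. At day 17 the log2 differences were 2.97 for *Zscan4b*, 3.0 for *Zscan4e* and 3.21 for *Zscan4-ps2* (limma adjusted p = 1.51e-09 for the last), in the fit without the filter. All 3 were called higher in KO at days 9, 11, 17 and 25. At day 3, *Zscan4b* (1.08, limma adjusted p = 0.002) and *Zscan4-ps2* (1.55, 8.58e-04) were called, and *Zscan4e* had a difference of 0.69 (adjusted p = 0.119). Between days 17 and 25 the KO effect was called lower for all 3 (-2.09, -1.87 and -2.30 for *Zscan4b*, *Zscan4e* and *Zscan4-ps2*), and between days 9 and 25 for *Zscan4b* (-0.95, limma adjusted p = 0.0224) and *Zscan4-ps2* (-1.47, 0.00786), where 3.64% of the genes in this fit were called lower. The *Zscan4b* call between days 9 and 25 was lost without WT replicate 1 or 2 of day 9 or of day 25, KO replicate 1 of day 9 or KO replicate 2 of day 25 (adjusted p 0.0567 to 0.13), and that of *Zscan4-ps2* without KO replicate 1 of day 25 (0.0501). Day 25 of *Zscan4-ps2* rested on KO replicate 2, without which its adjusted p was 0.189. In this fit 0.609% of genes were called higher at day 3 and 8.97% at day 25. With all 6 *Zscan4* genes added up, the KO level was 10.3 ± 0.0177 RPKM (SD, n = 2) at day 17.

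**Figure D3:**
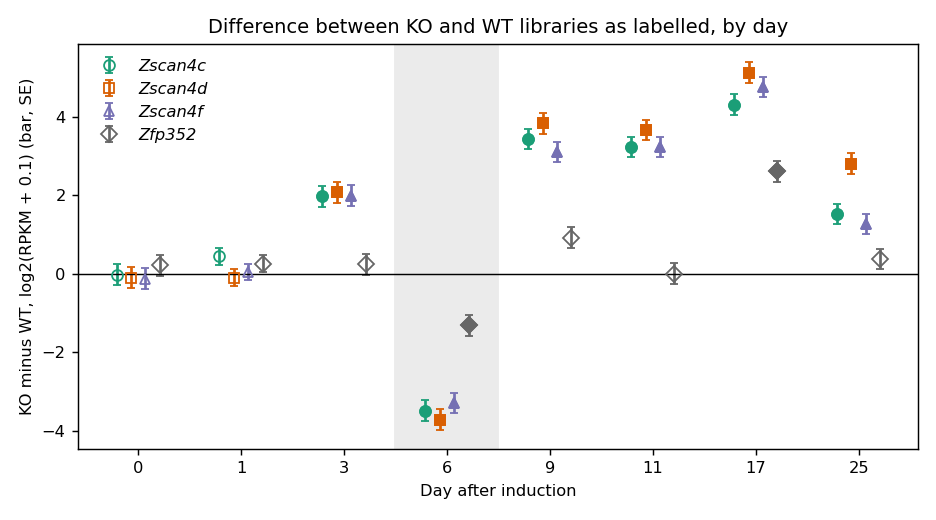
Log2 difference of KO minus WT as labelled, with its SE, at each day for the 4 members; filled points passed the test (limma adjusted p below 0.05). The 3 *Zscan4* members are filled at every day from 3 on, with day 6 below 0, and *Zfp352* is filled at days 6 and 17 only.

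The course of the KO effect was compared between days in the same fit. Between days 17 and 25 the log2 effect changed by -2.79 for *Zscan4c* (limma adjusted p = 4.77e-05), -2.31 for *Zscan4d* (3.60e-04), -3.49 for *Zscan4f* (3.80e-06) and -2.23 for *Zfp352* (4.86e-04). Of all genes tested, 9.32% had an effect that was called lower at day 25 than at day 17, and 8.76% in the fit without the filter that gave the *Zfp352* value. The effect at day 25 was also lower than at day 9 for *Zscan4c* (-1.92, adjusted p = 0.00275) and *Zscan4f* (-1.85, 0.00303), and for *Zscan4d* the difference of -1.03 was not called (0.106), with 4.17% of all genes called lower. The test of day 25 against day 9 lost its calls with a pseudocount of 0.01 or with limma voom, and day 25 against day 17 then kept 1 of the 3 calls, that of *Zscan4f*.

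Whether the KO effect grew from day 9 to day 17 depended on the scale. As deposited, the effect was larger at day 17 by 0.87 for *Zscan4c* (limma adjusted p = 0.452), 1.28 for *Zscan4d* (0.11), 1.64 for *Zscan4f* (0.0215) and 1.69 for *Zfp352* (0.0169), where 1.22% of all genes tested (1.93% without the filter) were called higher. The *Zscan4f* call was lost when any 1 of the 8 libraries of these days was left out (0.0655 to 0.106). The *Zfp352* call was lost without either KO library of day 9, WT replicate 2 of day 9, or replicate 1 of either genotype at day 17 (0.0534 to 0.134). With all libraries brought to the same share of reads in exons, the difference for *Zscan4c* was -0.13, that for *Zscan4f* 0.68 (adjusted p = 0.398) and that for *Zfp352* 1.1 (0.0903), and none was called. On this scale the KO libraries of day 9 had a sum of 5.49 and 5.53, and those of day 17 had 5.30 and 5.26, slightly less. As deposited, the day 17 libraries held 8.02 and 8.0 RPKM against 3.70 RPKM in both libraries of day 9. The libraries of days 9 and 17 belong to different sets of exon share, so that a change over time and a change of library set cannot be told apart.

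The order of the other KO levels also differed between the scales. As deposited, the KO libraries of day 11 (4.12 and 2.51 RPKM) lay on either side of day 9 and above those of day 3 (1.14 and 1.3 RPKM). Brought to the same exon share, the sum was 5.01 and 5.30 in the day 6 libraries labelled WT, 2.72 and 1.79 in KO at day 11, 1.71 and 1.93 in KO at day 3, and 0.535 and 0.713 in KO at day 25. Day 11 was then below day 9 and overlapped day 3, and day 6 as labelled overlapped day 17. The KO libraries of day 25 lay on either side of the WT and KO libraries of day 0, which held 0.541 to 0.627. WT libraries of day 25 held 0 and 0.0109 on this scale.

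**Figure D4:**
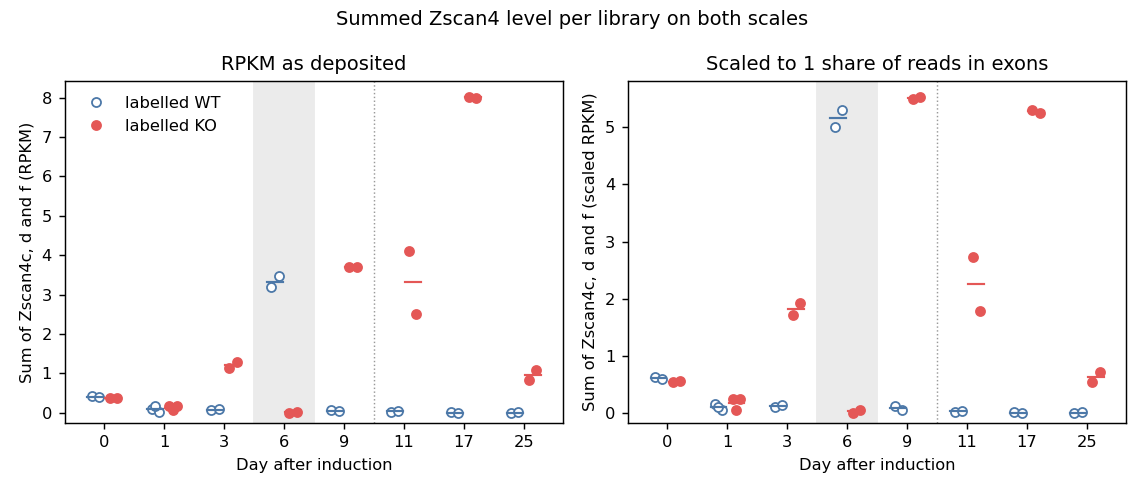
Sum of *Zscan4c*, *Zscan4d* and *Zscan4f* by day in WT and *Dnmt1* KO libraries, in RPKM as deposited (left) and with every library brought to the same share of reads in exons (right); each point is 1 library. The KO maximum at day 17 stands above day 9 on the left (8.02 against 3.70 RPKM) and close to it on the right (5.30 against 5.49).

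In WT cells the *Zscan4* genes were measured highest at day 0, again leaving day 6 aside. The sum was 0.404 to 0.421 RPKM in WT at day 0, 0.0301 to 0.161 RPKM at day 1 and 0 to 0.0891 RPKM (median 0.0250) in the 10 WT libraries from day 3 on without day 6. Every one of these 10 was below both WT libraries of day 0. This change was not tested, since the design compares genotypes within a day. Each fold change from day 3 on therefore stands on a WT level below that of the starting cells, and compared with the day 0 level of either genotype the KO sum was higher at days 3, 9, 11, 17 and 25 in every library as deposited.

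Other genes known from the 2-cell embryo were counted in a list of 35 symbols without the members, of which 22 were in the table. Only 3 of them passed the filter of 1 RPKM, *Gm5662*, *Gm8300* and *Gm2016*. All 3 exceeded 1 RPKM only in libraries low in *Dnmt1*. As with the *Zscan4* members, genes kept by this filter were thus bound to differ between libraries, and their calls are given as a description. *Gm5662* was called higher in KO by 2.28 at day 3, 3.22 at day 9, 2.84 at day 11, 4.20 at day 17 and 2.20 at day 25 (limma adjusted p from 2.41e-10 to 7.43e-05). *Gm8300* was called at the same days, with 1.93, 3.2, 3.17, 3.94 and 1.27, and *Gm2016* at days 9, 11 and 17 (2.60, 1.92 and 2.82). At day 6 as labelled all 3 were called lower (-3.73, -3.19 and -3.19), and between days 17 and 25 their effect changed by -2.0, -2.67 and -2.11. Of all genes tested, 0.603% were called higher at day 3, 2.46% at day 9, 4.37% at day 11, 9.13% at day 17 and 9.6% at day 25. At day 6 as labelled 2.16% were called lower, and 9.32% for day 25 against day 17. *Gm5662*, *Gm8300* and *Gm2016* have close copies of their own, and their share of repeated windows was not counted.

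Without the filter, 21 of the 35 symbols could be tested. Of these, 2 were called higher in KO at day 3, 7 at day 9, 11 at day 11, 15 at day 17 and 4 at day 25. Their median log2 difference was 0.23, 0.60, 0.60, 1.1 and 0.20 at these days, against a median of 0.01, 0.01, 0.05, 0.08 and 0.02 over all genes in this fit. Called higher among all genes were 0.609% at day 3, 2.34% at day 9, 5.94% at day 11, 10.5% at day 17 and 8.97% at day 25. None was called at days 0 and 1, where 0 of 42 limma tests had an unadjusted p below 0.05, and 12 were called lower at day 6 as labelled (0.526% of genes were called higher there and 2.02% lower). *Dux*, which encodes a transcription factor that switches on the 2-cell genes, reached at most 0.0847 RPKM in any library and was not called at any day by limma. Its difference at day 9 was 0.55 (unadjusted p = 0.00468, limma adjusted p = 0.105). The *Dux* values rested on few reads. KO libraries held 2 and 1 reads (day 3), 6 and 4 (day 9) and 3 and 0 (day 11). Those of day 17 held 0 and 7, and those of day 25 held 1 and 2. WT libraries of these days held 0. Among the day 6 libraries, those labelled WT held 2 and 11 reads and those labelled KO 0. All *Dux* values lay below the pseudocount of 0.1 RPKM, so a missed threshold does not show equal levels. Its share of repeated windows was not counted.

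Few of the factors listed as promoting or restraining the 2-cell state passed the test. Of 8 activators in a fixed list, 6 were in the table and 5 passed the filter, namely *Dppa2*, *Dppa4*, *Smarca5*, *Tet1* and *Tet2*. Whether each listed gene promotes the 2-cell state in these cells, *Tet1* and *Tet2* included, was not examined. None was called at any day, with 1 of 40 limma tests at an unadjusted p below 0.05. The uncalled genes still included unequal means: for *Tet1*, WT stood at 54.3 RPKM on day 25 and KO at 27.6 RPKM. *Smarca5* had the opposite order on that day (WT 20.6 RPKM, KO 33.5 RPKM). Group means ranged from 3.83 to 35.3 RPKM for *Dppa2* and from 19.2 to 61.9 RPKM for *Dppa4*. *Dppa2* measured 6.19 and 5.43 RPKM in WT and 11.21 and 10.2 RPKM in KO at day 9, and 9.16 and 9.66 RPKM in the libraries labelled WT and 3.93 and 3.73 RPKM in those labelled KO at day 6. The groups did not overlap at either day, in the same direction as the *Zscan4* genes. Of the 21683 genes with a value above 0 in at least 2 libraries, 32.6% had this order at day 9 and 34.6% at day 6 as labelled. The *Dppa2* differences of 0.87 (SE 0.688, limma adjusted p = 0.896) and -1.28 (adjusted p = 0.619) were not called. Of 17 repressors, all of which passed the filter, none was called at days 0 to 17 (2 of 119 limma tests at an unadjusted p below 0.05). At day 25, 2 were called lower in KO, *Chaf1a*, a subunit of the chromatin assembly factor CAF-1 (-0.82, with 9.66 RPKM in KO and 17.08 RPKM in WT), and *Trim28*, a corepressor recruited by zinc finger proteins (-0.67, 94.6 and 151 RPKM), where 11.3% of all genes tested were called lower. A p that misses the threshold does not show that the other factors were equal.

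**Figure D5:**
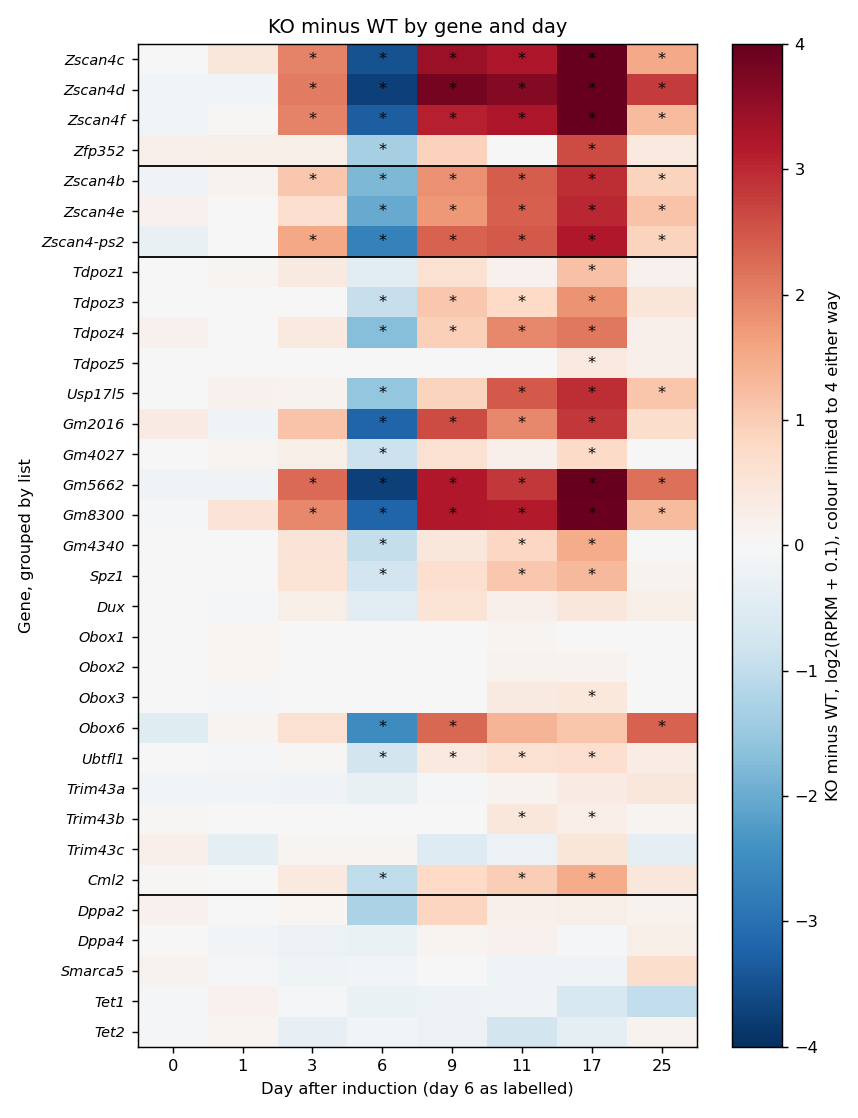
Log2 difference of KO minus WT as labelled (colour) by day (columns) for 33 genes, grouped as the members, the other *Zscan4* genes, further 2-cell genes and activators; an asterisk marks a limma adjusted p below 0.05. The *Zscan4* genes with *Gm5662* and *Gm8300* show positive differences from day 3 on and negative ones at day 6, and the 5 activators at the bottom carry no asterisk.

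The genes most like the *Zscan4* sum were ranked by Pearson r over the 34 libraries, after the mean of each day was subtracted. All points share the genotype contrast and the day 6 order. Over the 11615 genes the median r was 0.152 and the 99th percentile 0.943. The 10 genes with the highest r were *Ccrn4l* (0.991), *Slc38a6* (0.989), *Gm5662* (0.987), *Gm14149* and *Gm2783* (0.986), *Gm4511* (0.983), *Rhox9* (0.981), *AI662270* and *Gm949* (0.979) and *Rhox6* (0.978). *Zfp352* followed the sum less closely (0.801) than *Zscan4b* (0.967), *Zscan4e* (0.966) and *Zscan4-ps2* (0.970). *Ccrn4l*, which encodes the deadenylase Nocturnin, was more abundant than the *Zscan4* genes in either genotype, with 43.7 RPKM in KO and 8.39 RPKM in WT at day 9. *Rhox6* and *Rhox9* are homeobox genes of the X-linked *Rhox* cluster. The level of *Dnmt1* had an r of -0.87 with the sum. These correlations are descriptions without a test.

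Markers of other cells moved with genotype at some days. The summed RPKM of 12 fibroblast genes, which feeder cells express, was 9.15 and 8.07 in WT and 13.6 and 13.5 in KO at day 3. At day 9 it was 12.7 and 10.8 in WT and 22.3 and 19.9 in KO, and at day 6 10.4 and 12.99 in the libraries labelled WT and 6.43 and 6.24 in those labelled KO. The libraries low in *Dnmt1* were thus higher at days 3, 6 and 9. At day 1 the first and second pairs held 9.90 and 10.3 in WT and 13.6 and 12.2 in KO. The third pair of day 1 held 2.07 in WT and 2.18 in KO. From day 11 on the sum was 1.40 to 3.90 in all WT and KO libraries, and lower in KO than in WT at days 11 and 25. Among WT and KO libraries the low sums thus fell in the set with the larger share of reads in exons, the third pair of day 1 included. Of the 7 fibroblast genes tested, *Pdgfra* was called higher in KO at day 9 and lower at day 25, and *Thy1* lower at day 11. At day 17, where the *Zscan4* difference was largest, the fibroblast sums were 1.40 and 1.60 in WT and 1.64 and 1.67 in KO. Their part in the results of days 3, 6 and 9 was not tested.

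The 12 pluripotency markers, which check the labelled cell type, summed to 695 to 1999 RPKM over all WT and KO libraries. None of them was called by limma before day 25 (10 of 84 tests had an unadjusted p below 0.05), when *Nanog* was higher in KO (2.23) and *Sall4* (-1.56) and *Utf1* (-0.98) were lower, on a day when 9.6% of all genes tested were called higher and 11.3% lower. Uncalled markers still had unequal means at day 17. *Nanog* stood at 68.7 RPKM in WT and 164 RPKM in KO, *Tdgf1* at 411 and 263 RPKM, and *Utf1* at 26.1 and 15.2 RPKM. The spread between the sets of exon share, mixed at day 1, entered the error of this fit. A missed threshold therefore does not show that these markers were equal before day 25. Of 10 genes of differentiating cells, 9 were in the table and 3 passed the filter, and of these *Gata6* was called higher at day 9 (0.96) and lower at day 6 as labelled (-1.07), and *Eomes* higher at day 25 (0.88). Without the filter, 3 of the 9 were called higher at day 17, among them *Foxa2* (2.05) and *T* (1.89), where 10.5% of the genes in this fit were. At day 25 *T* (-1.32) and *Cdx2* (-2.52) were called lower, where 9.27% of the genes in this fit were.

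The summed RPKM of these 9 genes was 2.22 and 2.41 in WT and 4.02 and 4.39 in KO at day 17, where the *Zscan4* levels as deposited were highest. At day 9 it was 2.21 and 2.36 in WT and 3.66 and 3.73 in KO, and at day 6 3.996 and 4.15 in the libraries labelled WT and 2.22 and 2.60 in those labelled KO. At day 3 it was 4.21 and 4.43 in WT and 5.30 and 4.55 in KO. The libraries low in *Dnmt1* were thus higher at days 3, 6, 9 and 17. The groups overlapped at day 11, and at day 25 WT held 4.76 and 4.90 and KO 4.86 and 4.53. Their part in the *Zscan4* results was not tested.

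The *Dicer* KO library had no replicate and allows no test. It held no read of *Zscan4c* or *Zscan4f*, 1 read of *Zscan4d* (0.0195 RPKM) and 10 reads of *Zfp352* (0.167 RPKM), with *Dnmt1* at 34.8 RPKM. Its *Zscan4* sum lay within the range of the WT libraries from day 3 on. Its fibroblast markers summed to 47.8 RPKM, more than in any other library.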

How the data were processed

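Total RNA-seq values were taken from 1 table for 35 libraries. According to the study's methods and the submitters' processing notes, the authors trimmed the reads with Trim Galore (0.3.5), aligned them to NCBIM37 with TopHat2 (2.0.11), dropped reads that mapped with low quality and counted reads per gene in SeqMonk, calling differences with DESeq2 and an intensity test. The methods speak of log2 RPM, but the deposited values are linear RPKM per gene: multiplied by exon length and depth they gave whole reads (within 0.1) for 99.5 to 99.7% of the values below 20 reads. RPKM was therefore tested as log2(RPKM + 0.1), which understates changes of low genes. The 11615 genes that exceeded 1 RPKM in 2 or more libraries entered a limma fit (limma 3.58.1, R 4.3.3) of group means over 34 libraries with a trended prior. The fit held no term for the sets of exon share, which the day 1 groups mixed, so the spread between these sets entered its error. KO minus WT at each day, and its change between days 9, 17 and 25, were adjusted over all genes by Benjamini-Hochberg (threshold 0.05). Members below that filter were tested in the same model over 21683 genes. Comparisons between days share libraries. Fold changes of recovered reads per depth carry exact 95% counting intervals, and a group at 0 was set to a floor of 3 reads.

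The closest replicates of the 20 pairs within groups had a chi-square of 1.31 per degree of freedom, so no library was taken for a repeat deposit. Windows of 100 bases were searched in NCBIM37, and promoters came from RefSeq (GRCm38.p6). The fit was tested on simulated data. Named were all members, all *Zscan4* genes and *Dnmt1*, the genes of the 2-cell and activator lists that passed the filter, up to 6 called repressors and the 10 genes most like the sum. *Dux* and the marker genes named for their call were added after their values were seen. Members and lists were chosen with earlier results of these data known. Alternatives were other pseudocounts, no filter, median centring, an equal share of reads in exons (chosen after seeing the data), limma voom on recovered reads, a replicate block, fits without day 6 or the third pair of day 1, and leaving out each library.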

Additional observations from a re-analysis of the deposited data

Results flagged for a closer look

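The KO effect differed between days by the limma test of the difference itself, on the log2(RPKM + 0.1) scale. From day 17 to day 25 it changed by -2.79 for *Zscan4c*, -2.31 for *Zscan4d*, -3.49 for *Zscan4f*, -2.23 for *Zfp352*, -2.30 for *Zscan4-ps2*, -2.09 for *Zscan4b* and -1.87 for *Zscan4e*. The KO effect of day 25 was also below that of day 9 for *Zscan4c* (-1.92), *Zscan4f* (-1.85), *Zscan4-ps2* (-1.47) and *Zscan4b* (-0.95, not called with median centring, adjusted p = 0.103). From day 9 to day 17 it was higher by 1.64 for *Zscan4f*, 1.69 for *Zfp352*, 1.14 for *Zscan4b* and 1.25 for *Zscan4e*, across libraries with different shares of reads in exons. Brought to an equal share in exons, these values were 0.68 for *Zscan4f*, 1.1 for *Zfp352*, 0.23 for *Zscan4b* and 0.31 for *Zscan4e* (limma adjusted p = 0.398, 0.0903, 0.808 and 0.706), and none was called. Median centring (adjusted p = 0.198 and 0.116) and limma voom (0.969 and 0.772) also ended the calls of *Zscan4b* and *Zscan4e*. So did leaving out WT or KO replicate 2 of day 9 or WT replicate 2 of day 17 for *Zscan4b* (0.0605 to 0.0751), and KO replicate 1 of day 9, WT replicate 2 of day 9 or KO replicate 1 of day 17 for *Zscan4e* (0.056 to 0.0589).

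At day 6 the *Zscan4* sum differed by -4.89 (KO minus WT as labelled), while it was higher in every KO library of days 3, 9, 11, 17 and 25. This difference between days was not tested, and *Dnmt1* also went against the labels at day 6.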

How the results depend on the processing

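The calls of *Zscan4c*, *Zscan4d* and *Zscan4f* at days 3, 6, 9, 11, 17 and 25 kept their direction and side of the threshold under all alternatives that gave a value (44 per result, 43 at day 6). The highest adjusted p was 0.0433, for *Zscan4f* at day 25. Comparisons between days were less stable. For day 17 against day 9, 1 of the 3 members was called higher, 3 with a pseudocount of 1, 2 without the third pair of day 1, with the replicate block or without the filter, and 0 with a pseudocount of 0.01, median centring, limma voom or an equal share of reads in exons (0 to 1 leaving out a library). On that last scale the value was -0.13 for *Zscan4c* and -0.12 for *Zscan4-ps2*. For day 25 against day 17, 3 members were called lower, and 1 with a pseudocount of 0.01 or voom. For day 25 against day 9, 2 were called lower, and 0 under these settings.

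The log2 difference of the *Zscan4* sum was -0.12, 0.28, 2.90, -4.89, 4.60, 4.64, 6.24 and 3.29 at days 0, 1, 3, 6, 9, 11, 17 and 25. A pseudocount of 1 gave -0.041, 1.04, -2.09, 2.15, 2.03, 3.16 and 0.95 at these days other than day 1. Adding all *Zscan4* genes gave -0.18, 3.23, -5.30, 4.85, 6.49 and 3.66 at days 0, 3, 6, 9, 17 and 25, and an equal share in exons -0.14, 3.17, -5.42, 4.93, 5.68 and 2.77. Reads per mega-read gave 3.40, -5.83, 5.18, 5.38, 7.27 and 4.17 at days 3, 6, 9, 11, 17 and 25, and median centring 6.06 at day 17.

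Libraries that share a day and a replicate number did not deviate together in general (r from -0.16 to 0.91 over 17 pairs, high at day 1 alone). The replicate block added the calls of *Zscan4d* for day 17 against day 9 (adjusted p = 0.0351) and day 25 against day 9 (0.0389), *Zfp352* at day 9 (0.0210) and *Zscan4e* at day 3 (0.0461), and lost none. With only the compared libraries in the fit, 9 calls of *Zscan4b*, *Zscan4e* and *Zscan4-ps2* were lost. The causes were not tested. WT levels rest on few reads (1 at day 17), so the size of a fold is less certain than its direction.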

Other observations

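*Zscan4d* made up an unusual part of the cluster's RNA at day 25. In the 2 KO libraries of that day it gave 63.5% and 63.3% of the summed RPKM of *Zscan4c*, *Zscan4d* and *Zscan4f*. In the other 14 libraries with at least 30 reads on these genes it gave 33.0 to 45.6%, with 24.3 to 40.0% for *Zscan4c* and 23.5 to 36.9% for *Zscan4f*. In reads, *Zscan4d* took 59.6% of 52 reads in one KO library of day 25 (exact 95% interval 45.1 to 73.0%) and 59.2% of 71 in the other (46.8 to 70.7%). The comparison was chosen after the values were seen and was not tested.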
